A study of Mus musculus with 58 samples.

Results

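The 9 genes described here encode enzymes of the tricarboxylic acid (TCA) cycle: Cs, Idh2, Idh3a, Idh3b, Idh3g, Ogdh, Fh1, Mdh1 and Mdh2. They were chosen by name, and every probe set annotated to 1 of these symbols was taken, which gave 24 probe sets of 45037 and 9 genes of 18193 with a probe set of a single symbol. The TCA cycle runs in the mitochondrial matrix, where it oxidises the acetyl group made from pyruvate and fatty acids and hands the electrons to the respiratory chain. Skeletal muscle depends on it for sustained work, and fibres that are rich in mitochondria carry more of its enzymes than fast glycolytic fibres. Mdh1 is the exception among the 9 by location, since it encodes the cytosolic malate dehydrogenase of the malate-aspartate shuttle, and Idh2 encodes an NADP-dependent enzyme that runs beside the NAD-dependent cycle enzyme.

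RNA of quadriceps muscle was measured on Affymetrix expression arrays in 34 male mice, in 3 experiments, and each mutant was compared with wild type of its own experiment. In experiment 1, mice of the CUGexp transgenic lines 20b and 41 on the FVB background were set beside FVB wild type, all 6 months old, with 6 mice per group. CUGexp mice model myotonic dystrophy type 1 by making RNA with an expanded CUG repeat, which holds splicing regulators of the muscleblind family. In experiment 2, 3 Clcn1-null mice, which lack the muscle chloride channel and are myotonic, were set beside 3 wild types of their BALB background at 3 months. In experiment 3, 5 Mbnl1-null mice, which lack the splicing regulator MBNL1, were set beside 5 wild types of their FVB background at 3 months. The labels call the genetic changes constitutive and do not name the promoter of the transgene. Mice of experiments 1 and 2 were each hybridised to a 430A and a 430B array, and mice of experiment 3 on the single array 430 2.0.

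All values are log2 array intensities, so a change of 1 is a doubling, and levels are compared only within a probe set and an experiment. The experiments have different array types and distributions. Each gene is read first at its lead probe set, the brightest of the gene by its mean level in the 3 experiments, and then at its other probe sets. Only probe sets whose log2 value was 5 or more (intensity 32) in enough mice to fill the smallest group were tested. All 9 lead probe sets were tested in each experiment, and of the 24 probe sets 21, 24 and 21 were tested in experiments 1, 2 and 3. A change was called at an adjusted p under 0.05 in the limma fit over all probe sets of the experiment. The p-values measure the spread between mice, since the labels do not say how litters were divided.

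The tissue and genotype labels were checked on marker genes. Fast muscle fibre markers averaged log2 15.28 to 16.19 over the 34 mice. Clcn1 read 9.30 to 9.54 in the mutant that lacks it, against 10.25 to 11.27 in its BALB controls (-1.42, adjusted p = 0.0507, limma, not called). Mbnl1 read 12.90 to 13.20 in Mbnl1-null mice and 13.76 to 13.88 in wild type (-0.73, called). Neither fall was particular to its label. Clcn1 was also called lower in line 20b (-0.95), line 41 (-0.46) and Mbnl1-null mice (-1.11). Mbnl1 read 13.36 to 13.55 in Clcn1-null mice and 13.67 to 13.90 in BALB wild type (-0.37, not called). Where these probes lie relative to the deleted parts is not known. FVB wild-type mice 1 and 2 of experiment 1 stood apart, with mean slow fibre markers of log2 11.08 and 8.93 (12.96 to 13.56 in the other 4) and mean adipocyte markers of 12.70 and 12.95 (10.58 to 11.20 in the other 4). In bulk muscle, fewer cells of a type and less RNA per cell cannot be told apart.

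Promoter sequences are shown for the 3 genes whose lead probe set was called against wild type, to give their identity and position. They come from RefSeq on GRCm38.p6 and hold 250 bases before to 50 bases after an annotated start. Of the 9 genes 8 had a window in the table, 13 windows in all, with 6 for Ogdh; Idh3a was not in it. Exact letters were searched on both strands: AAGGTCA (an element of oestrogen-related receptors, which control many mitochondrial genes), GCATGCG (the core of the NRF1 site), CCGGAAG (an ETS site such as GABP binds), GGGCGG (the GC box) and TATAAA (the TATA box). Capitals mark these letters.
Idh2, chr7:80115301-80115600, - strand: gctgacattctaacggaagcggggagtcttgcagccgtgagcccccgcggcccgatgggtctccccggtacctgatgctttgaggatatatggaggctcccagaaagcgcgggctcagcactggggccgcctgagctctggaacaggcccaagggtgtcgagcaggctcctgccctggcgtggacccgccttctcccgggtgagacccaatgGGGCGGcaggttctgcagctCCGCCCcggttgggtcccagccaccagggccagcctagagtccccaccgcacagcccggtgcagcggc
Mdh2, chr5:135778399-135778698, + strand: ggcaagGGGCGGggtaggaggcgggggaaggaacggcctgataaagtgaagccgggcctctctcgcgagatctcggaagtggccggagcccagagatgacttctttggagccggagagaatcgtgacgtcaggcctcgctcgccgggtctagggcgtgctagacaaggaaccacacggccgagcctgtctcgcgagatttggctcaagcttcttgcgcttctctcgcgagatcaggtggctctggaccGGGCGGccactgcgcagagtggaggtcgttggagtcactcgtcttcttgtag
Ogdh, the fourth window, chr11:6291920-6292219, + strand: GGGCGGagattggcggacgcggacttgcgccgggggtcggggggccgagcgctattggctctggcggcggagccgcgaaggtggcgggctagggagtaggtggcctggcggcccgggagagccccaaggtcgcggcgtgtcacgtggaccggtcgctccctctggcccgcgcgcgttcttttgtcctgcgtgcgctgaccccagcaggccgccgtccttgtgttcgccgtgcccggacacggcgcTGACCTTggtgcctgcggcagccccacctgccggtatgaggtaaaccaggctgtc
Ogdh, the fifth window, chr11:6292308-6292607, + strand: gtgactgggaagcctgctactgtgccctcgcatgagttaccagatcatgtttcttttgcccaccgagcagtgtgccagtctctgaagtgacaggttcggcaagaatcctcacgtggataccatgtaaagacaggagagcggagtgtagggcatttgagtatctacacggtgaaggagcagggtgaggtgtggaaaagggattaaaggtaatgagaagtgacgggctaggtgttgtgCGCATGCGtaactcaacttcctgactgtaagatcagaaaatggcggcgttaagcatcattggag

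The Idh2 and Mdh2 windows each held 2 GC boxes and none of the other 4 motifs. In the fourth Ogdh window AAGGTCA lay on the reverse strand, beside 1 GC box. In the fifth, 1 run of letters matched GCATGCG on both strands, and these matches overlap. Among the windows of the 9 genes, AAGGTCA was found in 1, GCATGCG in 2 (both of Ogdh and overlapping), CCGGAAG in 2 (Idh3b and Idh3g), the GC box in 9 and the TATA box in 0. Of all 32851 promoter windows in the table, 4.72% held AAGGTCA, 3.58% GCATGCG, 8.86% CCGGAAG, 35.7% the GC box and 13.6% TATAAA. A match describes letters and is not evidence of binding.

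The calls at the lead probe sets were as follows. In line 20b, Ogdh and Mdh2 fell by 0.23 and 0.24 on the log2 scale, and in line 41 Mdh2 fell by 0.19. The other Mdh2 probe set did not fall on average in either line (0.04 and 0.06, neither called). In Clcn1-null mice Idh2 rose by 1.36, which is 2.57-fold. In Mbnl1-null mice none of the 9 lead probe sets was called. The plot of lead probe sets by mouse shows all 34 values of each gene.

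**Figure D1:**
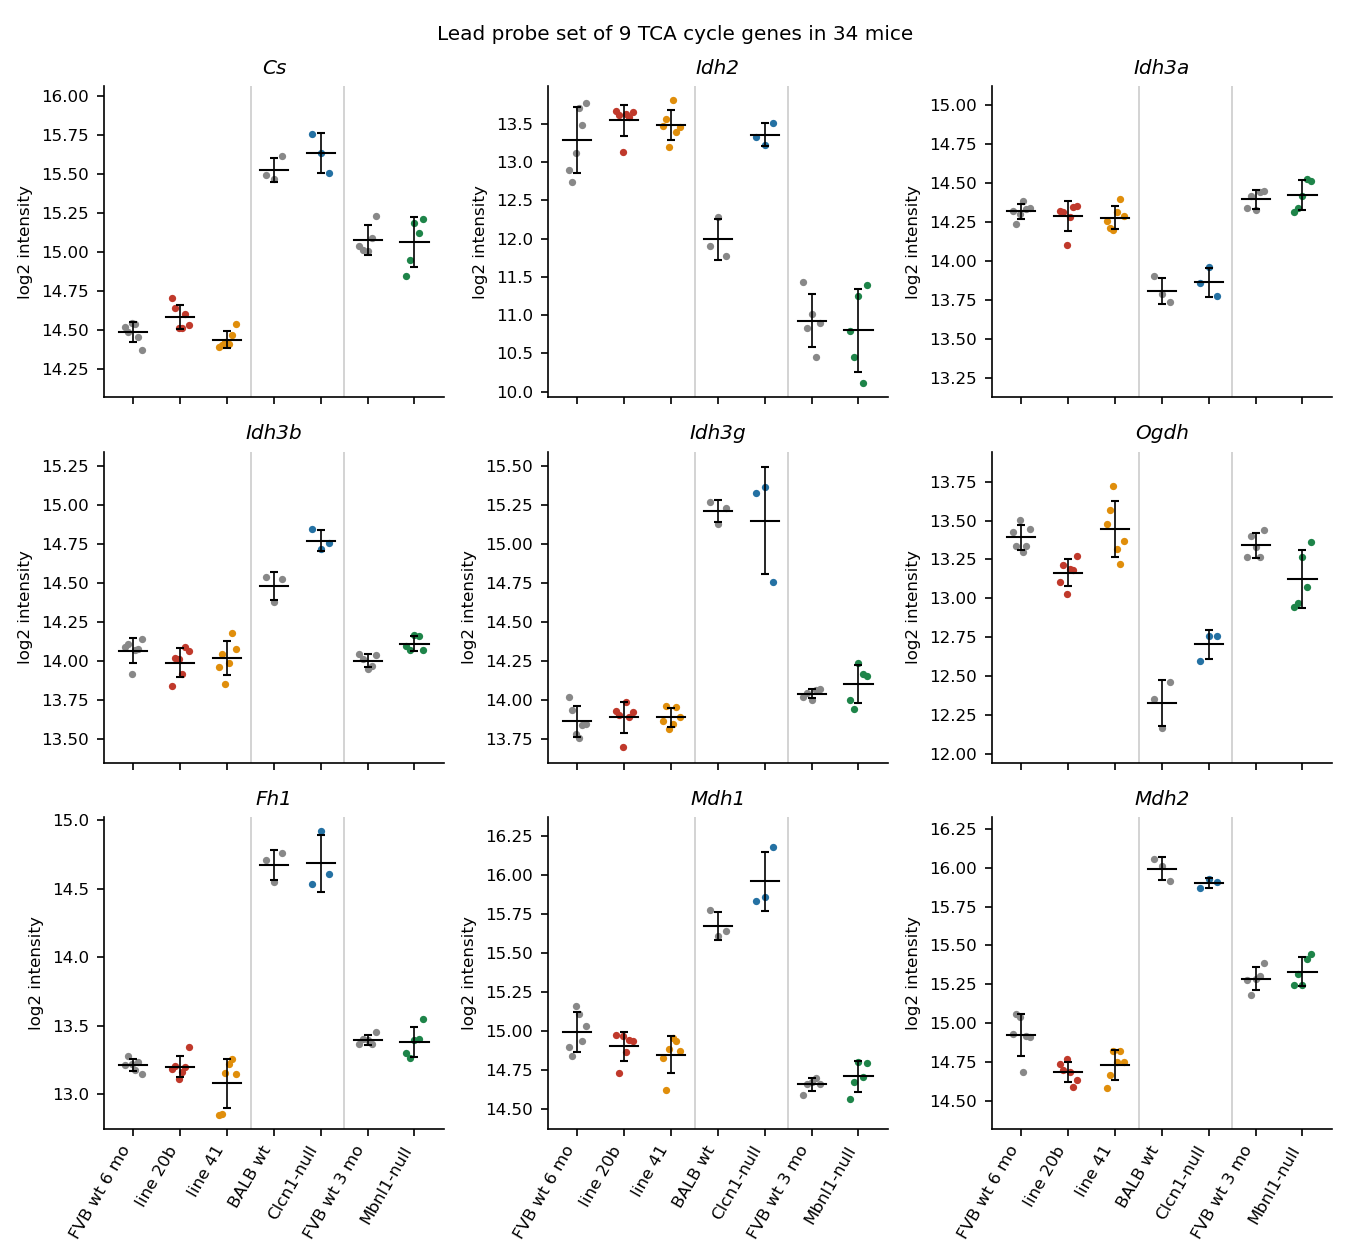
Log2 intensity of the lead probe set of each of the 9 genes in every mouse; each point is a mouse, the bar is the group mean and the whisker is 1 SD (6, 6, 6, 3, 3, 5 and 5 mice from left to right), and grey lines part the 3 experiments. Idh2 in Clcn1-null mice (13.22 to 13.51) lies above BALB wild type (11.77 to 12.29), and Ogdh in line 20b (13.03 to 13.27) lies below its wild type (13.30 to 13.51).

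Counted over the 9 lead probe sets, line 20b had 0 higher and 2 lower than wild type, where 8.71% of all 12955 genes tested were higher and 10.2% were lower. That share of 9 genes is about 1 gene. The median change of the 9 was -0.03, against -0.01 over all genes, and 6 of 9 were below 0, against 53% of all genes. With a median shift of the arrays the median of the 9 turned to 0.02 and 4 of 9 were below 0, so neither has a settled direction. Line 41 had 0 higher and 1 lower, where 3.74% of all genes were higher and 5.19% lower, with a median of -0.05 against -0.02. Clcn1-null mice had 1 higher and 0 lower, where 1.96% of all genes were higher and 2.88% lower. There 7 of 9 changes were above 0 (6 of 9 with a median shift), and the median was 0.11 against 0.02. Mbnl1-null mice had 0 called of 9, where 8.01% of all genes were higher and 8.11% lower, with a median of 0.03 against -0.01, which turned to -0.00025 with quantile normalisation.

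Over all tested probe sets of the 9 genes, 5 of 21 were lower in line 20b and 3 of 21 in line 41, where 16.9% and 8.49% of all probe sets were called in either direction. In Clcn1-null mice 2 of 24 were higher and 0 lower (4.21% of all called in either direction). In Mbnl1-null mice 1 of 21 was lower and 0 higher (16.2% of all called in either direction). Between the lines 1 was higher and 1 lower of 21 (5.91% of all called).

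**Figure D2:**
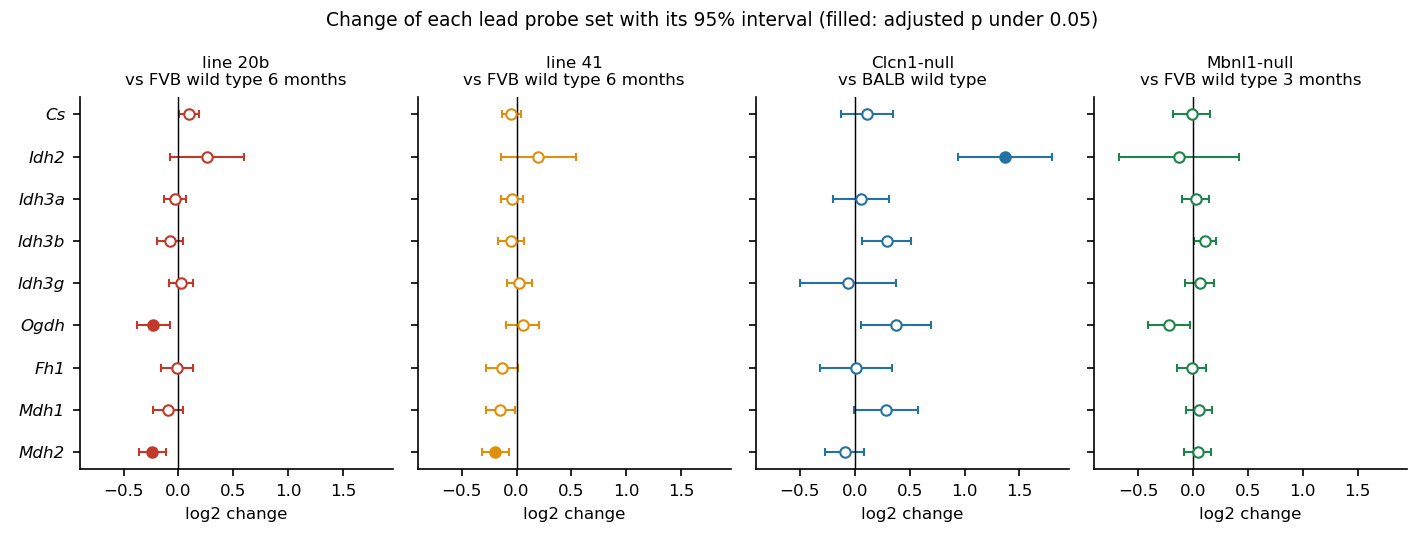
Log2 change of each lead probe set, mutant minus wild type of the same experiment, with its 95% interval from the limma fit; filled points have an adjusted p under 0.05. The filled points are Ogdh (-0.23) and Mdh2 (-0.24) in line 20b, Mdh2 (-0.19) in line 41 and Idh2 (1.36) in Clcn1-null mice.

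Intervals at the lead probe sets show what their uncalled changes could hide. In line 20b the 6 uncalled genes other than Idh2 had 95% intervals between -0.23 and 0.19, and in line 41 the 7 uncalled genes other than Idh2 had intervals between -0.28 and 0.21. In Mbnl1-null mice the 8 genes other than Idh2 lay between -0.41 and 0.21. The 8 uncalled genes of the Clcn1-null comparison had wider intervals, from -0.50 to 0.69, with 3 mice per group. These bounds hold for the lead probe sets alone. For Idh3a, 1422500_at (-0.47 and -0.32) and 1422501_s_at (-0.36 and -0.29) were called lower in lines 20b and 41, with changes outside the bounds of those lines.

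Cs encodes citrate synthase, which joins acetyl-CoA and oxaloacetate and opens the cycle; its activity is widely used as a measure of mitochondrial content. In experiment 1 it read 14.37, 14.50 and 14.54 (lowest, median and highest of 6 mice) in wild type. It read 14.51, 14.57 and 14.70 in line 20b and 14.39, 14.42 and 14.54 in line 41. The 3 groups overlap, with 3 line 20b mice above all wild types.

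Against wild type Cs was not called in line 20b (0.10, SE 0.04, adjusted p = 0.133) or line 41 (-0.05, SE 0.04, adjusted p = 0.556). Set directly beside line 41, Cs was higher in line 20b by 0.15 (SE 0.04, adjusted p = 0.0485). In that comparison the 9 genes had 1 higher and 1 lower, where 3.5% of all genes were higher and 2.33% lower. No gene of the 9 was without overlap between the lines, against 3.87% of all genes. The Cs call between lines was lost (adjusted p 0.0577 to 0.108, change 0.12 to 0.16) without mouse 1, 2, 5 or 6 of line 20b or mouse 1, 2, 3, 4 or 5 of line 41. The 2 other Cs probe sets differed between the lines by 0.02 and -0.18, neither called.

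In experiment 2 Cs read 15.76, 15.64 and 15.51 in mutants, against 15.50, 15.47 and 15.62 in their controls, which overlap (0.11, SE 0.10, adjusted p = 0.572). In experiment 3 it read 14.84, 14.95, 15.19, 15.12 and 15.21 in Mbnl1-null mice and 15.04, 15.01, 15.01, 15.09 and 15.24 in wild type. These groups overlap, with a change of -0.01 (SE 0.08, adjusted p = 0.942). Of the 2 other Cs probe sets, neither was called against wild type in any mutant, and 1 of them was higher in all 3 Clcn1-null mice than in all 3 BALB wild types (0.20, adjusted p = 0.357).

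Idh2 encodes the mitochondrial NADP-dependent isocitrate dehydrogenase, which supplies NADPH to the antioxidant systems of the matrix. Its lead probe set read 13.33, 13.22 and 13.51 in the 3 mutants of experiment 2, against 11.91, 12.29 and 11.77 in their 3 controls. The groups do not overlap, and the lowest mutant lies well above the highest wild type. The change was 1.36 (SE 0.17, 95% interval 0.94 to 1.79, adjusted p = 0.0175, higher in 3 of 3 mice), larger than 98.5% of the changes of all tested probe sets in that comparison. The call was lost without BALB mouse 1 (1.32, adjusted p = 0.104), BALB mouse 3 (1.26, adjusted p = 0.0929), Clcn1-null mouse 1 (1.38, adjusted p = 0.0585) or Clcn1-null mouse 2 (1.43, adjusted p = 0.0574), each of which leaves 2 mice against 3.

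The dimmer Idh2 probe set, 1453601_at, was also higher in all Clcn1-null mice (7.06, 7.39 and 6.47) than in all wild types (6.38, 6.03 and 6.34). Its change of 0.73 (SE 0.25, adjusted p = 0.201) was not called. Both probe sets were thus higher in all 3 mutants, and their difference in change was not called (adjusted p = 0.473).

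Markers of other cells moved in the same comparison. All 5 tested adipocyte markers were higher in Clcn1-null mice (median 1.97), and the mean over the 6 measured was 11.87 to 12.12 in mutants and 10.29 to 10.55 in wild type. Of 9 slow fibre markers 5 were lower and 1 was higher (median -2.42), with means of 10.63 to 12.01 in mutants and 13.14 to 13.54 in wild type. Of 12 fast fibre markers 1 was lower and 1 was higher (median -0.07, changes from -1.72 to 0.52). Of 3 brown adipocyte markers 1 was higher and 0 were lower (median 1.83, changes from -1.85 to 3.55). Of 7 endothelial markers 0 were called. Macrophage and leukocyte markers averaged 9.41 to 9.72 in mutants and 8.41 to 8.94 in wild type (1 of 5 tested called higher), and fibroblast markers 12.01 to 12.59 against 11.23 to 11.90 (0 of 5 called). Of all genes 1.96% were higher and 2.88% lower in that comparison. The part of these markers in the Idh2 change was not tested. In experiment 1, with another strain and age, the lowest Idh2 of wild type was in mice 1 and 2 (12.89 and 12.74). These mice had the highest adipocyte and the lowest slow fibre markers of their group, and any link was not tested.

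Idh2 had the highest SD between mice of the 9 lead probe sets in each group (0.20 to 0.54) except Clcn1-null, where it had 0.15 and Idh3g 0.34. In experiment 1 it read 12.74, 13.30 and 13.77 (lowest, median, highest) in wild type, 13.13, 13.62 and 13.67 in line 20b, and 13.20, 13.47 and 13.81 in line 41. The 3 groups overlap, and neither line 20b (0.26, SE 0.16, adjusted p = 0.315) nor line 41 (0.20, SE 0.16, adjusted p = 0.516) was called. In experiment 3 it read 10.80, 10.45, 11.25, 10.11 and 11.40 in Mbnl1-null mice and 11.43, 10.84, 11.01, 10.46 and 10.90 in wild type. Both groups there span about the same range (-0.13, SE 0.25, 95% interval -0.67 to 0.42, adjusted p = 0.776).

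The NAD-dependent isocitrate dehydrogenase is the enzyme that turns isocitrate into 2-oxoglutarate in the cycle and is a main point of its control. Idh3a encodes the catalytic subunit, and Idh3b and Idh3g encode the other subunits. For Idh3a the probe sets gave different answers. At the lead probe set, 1432016_a_at, the groups of experiment 1 read 14.24, 14.33 and 14.38 in wild type, 14.10, 14.32 and 14.35 in line 20b, and 14.20, 14.27 and 14.40 in line 41. The groups overlap and neither line was called (-0.03, SE 0.05 and -0.04, SE 0.05).

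At 1422500_at, in the same mice, wild type read 13.06, 13.11 and 13.31 (lowest, median, highest), line 20b 12.52, 12.69 and 12.78, and line 41 12.66, 12.82 and 13.01. All 6 mice of each line lay below all 6 wild types. The change was -0.47 in line 20b (SE 0.06, adjusted p = 5.34e-05) and -0.32 in line 41 (SE 0.06, adjusted p = 0.00517).

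The probe set 1422501_s_at behaved like 1422500_at. It read 12.16, 12.28 and 12.39 in wild type, 11.75, 11.93 and 12.02 in line 20b, and 11.89, 11.97 and 12.09 in line 41. Again no mouse of either line reached the wild-type range. It fell by 0.36 in line 20b (SE 0.06, adjusted p = 0.000176) and by 0.29 in line 41 (SE 0.06, adjusted p = 0.00323). Both probe sets were called in both lines in all 20 of the 20 alternative fits run for each. Both lines share their wild-type mice, so these are not independent comparisons.

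In Mbnl1-null mice 1422501_s_at read 11.34, 11.21, 11.50, 11.50 and 11.59 against 11.59, 11.85, 11.75, 11.74 and 11.96 in wild type. Of the 5 mutants 4 lay below all wild types. The change was -0.35 (SE 0.09, adjusted p = 0.0252). The call was lost without wild-type mouse 2 (-0.33, adjusted p = 0.0647), mouse 3 (-0.35, adjusted p = 0.05003) or mouse 5 (-0.30, adjusted p = 0.0569), and with no filter on dim probe sets (adjusted p = 0.0669). At 1422500_at the change was -0.35 (SE 0.13, adjusted p = 0.0812) and was not called, with 3 of 5 mutants below all wild types. The lead probe set read 14.31, 14.34, 14.41, 14.52 and 14.51 in mutants and 14.34, 14.42, 14.32, 14.44 and 14.45 in wild type, which overlap (0.03, SE 0.06).

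In Clcn1-null mice none of these Idh3a probe sets moved beyond the spread of the mice. The changes were 0.05 (SE 0.10) at the lead, -0.05 (SE 0.13) at 1422500_at and -0.04 (SE 0.18) at 1422501_s_at. Whether the Clcn1-null change differs from that of the other mutants was not tested, since the experiments have different scales. The remaining Idh3a probe set, 1447701_x_at, was too dim to be tested in experiment 1. It was not called in Clcn1-null mice (-0.24, SE 0.17, adjusted p = 0.504). Nor was it called in Mbnl1-null mice (-0.18, SE 0.12, adjusted p = 0.329), where 4 of 5 mutants lay below all wild types.

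The disagreement itself was tested after the values had been seen, as the difference of each other probe set from the lead of its gene within a mouse, in a limma fit over all such pairs. In line 20b the difference shifted by -0.44 for 1422500_at (SE 0.08, adjusted p = 0.00149) and by -0.33 for 1422501_s_at (SE 0.07, adjusted p = 0.00665). In line 41 the shifts were -0.27 (SE 0.08, adjusted p = 0.0399) and -0.25 (SE 0.07, adjusted p = 0.0379). In Mbnl1-null mice 1422501_s_at shifted by -0.37 (SE 0.08, adjusted p = 0.0249), and the shift of 1422500_at, -0.38 (SE 0.11, adjusted p = 0.0915), was not called. Idh3a thus gave all the called pairs of the 9 genes, 2 of 12 in line 20b, 2 of 12 in line 41 and 1 of 12 in Mbnl1-null mice, where 10%, 9.68% and 5.17% of all pairs were called. In Clcn1-null mice 0 of 15 pairs were called, against 0.729% of all pairs. The transcripts that each probe set detects were not compared here. The suffixes _s_at and _a_at mark probe sets that may detect several transcripts.

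**Figure D3:**
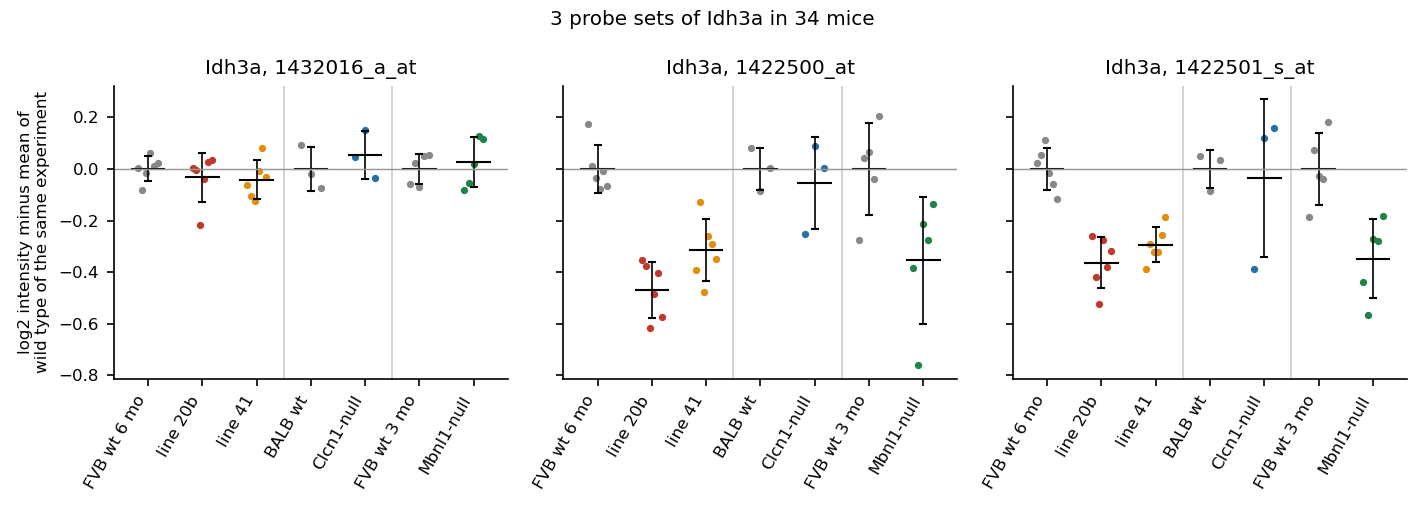
Log2 intensity of 3 Idh3a probe sets in each mouse minus the mean of the wild-type mice of the same experiment; points are mice, bars are group means and whiskers are 1 SD. At 1432016_a_at the groups overlap around 0, while at 1422500_at (-0.47 and -0.32) and 1422501_s_at (-0.36 and -0.29) all mice of line 20b and line 41 lie below their wild types.

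The lead probe set of Idh3b in experiment 2 read 14.85, 14.71 and 14.75 in mutants, against 14.54, 14.38 and 14.53 in controls. The groups do not overlap, but the change of 0.29 (SE 0.09, adjusted p = 0.169) was not called. The probe set 1418885_a_at read 11.52, 11.46 and 11.94 in mutants and 10.76, 10.68 and 10.76 in wild type, again without overlap, and was called higher by 0.91 (SE 0.16, adjusted p = 0.0435). With any of BALB mice 1, 2 and 3 or Clcn1-null mice 1 and 2 left out, its adjusted p was 0.0802 to 0.184 (change 0.88 to 0.99). The call was also lost with quantile normalisation, a median shift, no filter and the replicate block (adjusted p 0.0529 to 0.127). It and the Idh2 lead were the 2 probe sets called in that comparison.

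In experiment 1 Idh3b was not called in either line at its lead (-0.08, SE 0.06 in line 20b and -0.05, SE 0.06 in line 41). At 1418885_a_at wild type read 11.54, 11.99 and 12.94, line 20b 10.96, 11.50 and 11.80, and line 41 10.98, 11.85 and 12.98. The spread is wide, and the line 20b change of -0.72 (SE 0.29, adjusted p = 0.107) was not called. In Mbnl1-null mice all 5 lead values (14.09, 14.07, 14.17, 14.16 and 14.07) lay above all 5 wild types (14.04, 14.01, 13.95, 13.97 and 14.04). The change was small and not called (0.11, SE 0.05, adjusted p = 0.124), and Idh3b was the 1 gene of 9 whose groups did not overlap there, against 14.3% of all genes.

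Idh3g was not called in any comparison. Its changes against wild type were 0.03 (SE 0.05) in line 20b, 0.03 (SE 0.05) in line 41, -0.06 (SE 0.18) in Clcn1-null mice and 0.06 (SE 0.06) in Mbnl1-null mice. Clcn1-null mouse 3 (14.75) lay below the other Clcn1-null mice (15.33 and 15.36) and below all BALB wild types (15.13 to 15.27). The second Idh3g probe set was not called either, with changes of 0.01, 0.01, 0.17 and 0.03.

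Ogdh encodes the first subunit of the 2-oxoglutarate dehydrogenase complex, which makes succinyl-CoA and is another point of control of the cycle. Its lead probe set read 13.30, 13.38 and 13.51 (lowest, median, highest) in wild type of experiment 1, 13.03, 13.18 and 13.27 in line 20b, and 13.22, 13.42 and 13.72 in line 41. All 6 line 20b mice lay below all 6 wild types, while line 41 spans the wild-type range. Ogdh was the 1 gene of 9 without overlap in line 20b, where 10.7% of all genes had none; in line 41 no gene of the 9 was without overlap, against 4.35% of all genes.

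In line 20b Ogdh fell by 0.23 (SE 0.07, adjusted p = 0.0358, lower in 6 of 6 mice). That call was lost without wild-type mouse 1, 3 or 6 or line 20b mouse 1, 3, 4 or 5, with changes of -0.20 to -0.23 and adjusted p of 0.0537 to 0.0813. It was also lost without wild-type mice 1 and 2 together (-0.23, adjusted p = 0.0829). Line 41 was not called (0.05, SE 0.07, adjusted p = 0.718). Directly against line 41, line 20b was lower by 0.28 on the log2 scale (-0.28, SE 0.07, adjusted p = 0.0252), a call lost without line 20b mouse 1 or 3 or line 41 mouse 1 or 2 (-0.25 to -0.28, adjusted p 0.0538 to 0.0634).

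The dimmer Ogdh probe set, 1445632_at, read 9.06, 9.60 and 10.18 in wild type and 8.59, 8.96 and 9.29 in line 20b, and 3 of the 6 line 20b mice lay below all wild types. It fell by 0.69 (SE 0.22, adjusted p = 0.0361), a call lost (-0.58 to -0.67, adjusted p 0.0647 to 0.0827) without wild-type mouse 3, 4 or 6 or line 20b mouse 1, 3 or 6, and also with quantile normalisation (adjusted p = 0.0549) or no filter (adjusted p = 0.0618). In line 41 it changed by -0.15 (SE 0.22) and was not called.

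In Clcn1-null mice the 2 Ogdh probe sets had changes of opposite sign, neither called. The lead read 12.60, 12.76 and 12.76 in mutants and 12.35, 12.17 and 12.46 in wild type, all mutants higher (0.38, SE 0.13, adjusted p = 0.196). At 1445632_at mutants read 9.47, 9.36 and 8.28 and wild types 10.41, 10.22 and 10.26, all mutants lower (-1.26, SE 0.33, adjusted p = 0.110). The shift between the probe sets was -1.64 (SE 0.37, adjusted p = 0.110). In Mbnl1-null mice both probe sets were below wild type on average, by -0.22 (SE 0.09, adjusted p = 0.111) at the lead and -0.68 (SE 0.25, adjusted p = 0.0840) at the other, and neither was called. Without Mbnl1-null mouse 5 the lead was called (-0.28, adjusted p = 0.0326).

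Fh1 encodes fumarase, which adds water to fumarate to make malate, and has 1 probe set. It was not called in any comparison. The changes were -0.01 (SE 0.07) in line 20b, -0.13 (SE 0.07) in line 41, 0.01 (SE 0.13) in Clcn1-null mice and -0.01 (SE 0.06) in Mbnl1-null mice. In line 41 it read 12.85, 13.15 and 13.25 against 13.15, 13.22 and 13.28 in wild type, with 3 of 6 mice below all wild types and the others inside the range.

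Malate dehydrogenase closes the cycle by remaking oxaloacetate, and Mdh2 encodes the mitochondrial form. Its lead probe set, 1433984_a_at, read 14.69, 14.93 and 15.06 in wild type of experiment 1, 14.59, 14.69 and 14.77 in line 20b, and 14.58, 14.75 and 14.82 in line 41. Wild-type mouse 4, the lowest, lies within the range of both lines, and 3 line 20b mice and 2 line 41 mice lay below it. Mdh2 fell by 0.24 in line 20b (SE 0.06, adjusted p = 0.00739), and this call held in all 14 alternative fits and with each of 12 mice left out. In line 41 it fell by 0.19 (SE 0.06, adjusted p = 0.0459), a call lost (-0.16 to -0.20, adjusted p 0.0637 to 0.0987) without wild-type mouse 1, 2, 3, 5 or 6 or line 41 mouse 1, 2, 4 or 6.

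At the other Mdh2 probe set, 1416478_a_at, neither line was lower on average. It read 14.35, 14.41 and 14.46 in wild type, 14.33, 14.44 and 14.56 in line 20b, and 14.40, 14.46 and 14.53 in line 41. Its changes were 0.04 (SE 0.04) and 0.06 (SE 0.04), neither called. The shift between the 2 probe sets within a mouse was 0.28 in line 20b (SE 0.09, adjusted p = 0.0510) and 0.26 in line 41 (SE 0.09, adjusted p = 0.0765). In the other mutants the lead Mdh2 probe set was not called, at -0.09 (SE 0.07) in Clcn1-null mice and 0.04 (SE 0.06) in Mbnl1-null mice.

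Mdh1 encodes the cytosolic malate dehydrogenase and has 5 probe sets, of which none was called where tested; 2 were not tested in Mbnl1-null mice. Its lead read 14.84, 14.99 and 15.16 in wild type of experiment 1, 14.73, 14.94 and 14.98 in line 20b, and 14.62, 14.88 and 14.96 in line 41, which overlap (-0.09, SE 0.06 and -0.15, SE 0.06). In experiment 2 the Clcn1-null values were 15.84, 15.86 and 16.18, against 15.78, 15.61 and 15.64 in controls. The mutants lie above all wild types by a small margin (0.28, SE 0.12, adjusted p = 0.270). The probe set 1448172_at showed the same order (0.45, SE 0.12, adjusted p = 0.116). In Mbnl1-null mice the lead changed by 0.05 (SE 0.05).

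Idh2, Idh3b, Ogdh and Mdh1 were thus the 4 genes of 9 whose Clcn1-null and BALB mice did not overlap, all with higher mutants. With 3 mice per group 31% of all genes had no overlap. The mean deviation of the 9 genes from wild type was 0.23 to 0.30 in the 3 Clcn1-null mice and -0.03 to 0.04 in the 3 wild types, and Idh2 carries the largest share of it. The same mean was -0.14 to 0.02 in line 20b, -0.09 to 0.01 in line 41 and -0.06 to 0.05 in their wild types. In Mbnl1-null mice it was -0.13 to 0.15 against -0.05 to 0.06, so the mutants lay on both sides of wild type. In Mbnl1-null mice 7 of 9 slow fibre markers were lower (median -3.19), and in line 20b 5 of 7 endothelial, 5 of 5 tested adipocyte and 2 of 2 tested nerve and Schwann markers were lower. In line 41 the counts were 3 of 7, 0 of 5 and 1 of 2. Without wild-type mice 1 and 2 of experiment 1 they were 3 of 7, 1 of 5 and 1 of 2 in line 20b and 2 of 7, 0 of 5 and 0 of 2 in line 41. In these lists 0 were higher in that fit. Of all genes 8.11% were lower in Mbnl1-null mice, 10.2% in line 20b and 5.19% in line 41. Without those wild-type mice 15.1% of all genes in line 20b and 5.59% in line 41 were called in either direction. The part of these markers in the values of the 9 genes was not tested.

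Genes with the pattern most like the mean of the 9 over the 34 mice were ranked by the root mean square difference of their deviations from wild type, among 8754 genes that vary at least as much as that mean. The 5 nearest were Atp5b (0.0628), Atp5c1 (0.0814), Hectd3 (0.0884), Coq9 (0.0969) and Cox7a2 (0.0973). Atp5b and Atp5c1 encode subunits of ATP synthase, Coq9 takes part in coenzyme Q synthesis, Cox7a2 encodes a subunit of cytochrome c oxidase, and Hectd3 encodes a ubiquitin ligase. Like the mean of the 9, Atp5b was higher in Clcn1-null mice on average (0.26) and near wild type elsewhere (-0.08, -0.01 and -0.05). Cox7a2 changed by only 0.08 in Clcn1-null mice. By the same measure the 9 genes themselves lay between 0.0832 (Idh3a) and 0.458 (Idh2) from their mean, with Mdh2 at 0.178 and Ogdh at 0.163. The ranking thus describes the mean and not a pattern that each of the 9 genes follows.

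Neighbouring steps of metabolism were read from lists of named genes. Of all genes, 8.71% were higher and 10.2% lower in line 20b, and 3.74% and 5.19% in line 41. The shares were 1.96% and 2.88% in Clcn1-null mice and 8.01% and 8.11% in Mbnl1-null mice. Between the lines 3.5% were higher and 2.33% lower in line 20b. Without wild-type mice 1 and 2 of experiment 1, 15.1% were called in either direction in line 20b and 5.59% in line 41. The rest of the cycle (aconitase, succinyl-CoA ligase, the other parts of the 2-oxoglutarate complex and succinate dehydrogenase) had 9 measured genes. Sdha, the flavoprotein subunit of succinate dehydrogenase, was lower in line 20b (-0.16), and the other 8 were not called. No gene of this list was called in line 41, Clcn1-null or Mbnl1-null mice (medians -0.08, 0.34 and 0.02). In the Clcn1-null comparison the median over all genes was 0.02. With 3 mice per group there, an uncalled gene is not shown to be unchanged. Between the lines, Suclg2, a subunit of succinyl-CoA ligase, was higher in line 20b (0.27) and Sdha lower (-0.19).

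Among the genes of pyruvate entry, line 20b had 1 higher and 2 lower of 12 tested. Pdk1, a kinase that inhibits pyruvate dehydrogenase, rose by 0.19, Pdp1, the phosphatase that activates it, fell by 0.79, and Pcx, pyruvate carboxylase, fell by 0.77. Line 41 had 1 lower of 12 (Pdp1, -0.77), and none was called of 12 in Clcn1-null mice or of 11 in Mbnl1-null mice. Without wild-type mice 1 and 2 the counts were 0 higher and 1 lower in line 20b and 0 called in line 41.

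In the list of shuttles, carriers and cytosolic relatives, 1 gene was called in each of the 4 mutants. This was Got2, the mitochondrial aspartate aminotransferase of the malate-aspartate shuttle, higher in line 20b (0.53, SE 0.06), line 41 (0.23, SE 0.06), Clcn1-null mice (0.88, SE 0.09, adjusted p = 0.0111) and Mbnl1-null mice (0.38, SE 0.11, adjusted p = 0.0425). Slc25a12, an aspartate-glutamate carrier of that shuttle, was higher in line 20b (0.30), and the dicarboxylate carrier Slc25a10 was higher in Clcn1-null mice (1.98). Me1, the cytosolic malic enzyme, was lower in line 20b (-0.86) and in Mbnl1-null mice (-0.87). The tested adipocyte markers had a median of 1.97 in Clcn1-null and 0.15 in Mbnl1-null mice. In line 20b their median was -1.17 (-0.63 without wild-type mice 1 and 2). Any link of these markers to Slc25a10 or Me1 was not tested. Idh1, the cytosolic relative of Idh2, was higher in Mbnl1-null mice (0.77). In all 2 of 12 tested were higher and 1 lower in line 20b, 1 of 12 higher in line 41, 2 of 13 higher in Clcn1-null mice, and 2 higher and 1 lower of 11 in Mbnl1-null mice. Without wild-type mice 1 and 2 the line 20b counts stayed at 2 and 1, and in line 41 none was called.

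The respiratory chain, which takes up the electrons of the cycle, had 14 genes tested in each experiment. In line 20b Cox7a1, the muscle form of a cytochrome c oxidase subunit, was higher (0.14) and Cycs, cytochrome c, lower (-0.19). In line 41 Uqcrc2, a core subunit of complex III, and Cycs were lower (-0.26 and -0.19). Without wild-type mice 1 and 2 none was called in line 20b, and 1 was lower in line 41. None was called in Clcn1-null mice (median 0.22, against 0.02 over all genes) or Mbnl1-null mice (median 0.01).

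Fatty acid oxidation, which feeds acetyl-CoA into the cycle, had 14 genes tested. In line 20b 7 were lower and 0 higher (median -0.22), where 10.2% of all genes were lower and 8.71% higher. Among the 7 were Hadhb (-0.44) of the trifunctional protein and Acadl (-0.38), the long-chain acyl-CoA dehydrogenase. Leaving out wild-type mice 1 and 2 gave 2 of 14 lower, 0 higher and a median of -0.18, where 15.1% of all genes were called in either direction. In line 41 1 was higher (Hadha, 0.40). In Clcn1-null mice 2 were higher, Echs1 (0.69), an enoyl-CoA hydratase, and Acadm (0.57), the medium-chain dehydrogenase. The median of the list there was 0.50, against 0.02 over all genes. In Mbnl1-null mice Hadhb (-0.39) and Acadm (-0.32) were lower.

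**Figure D4:**
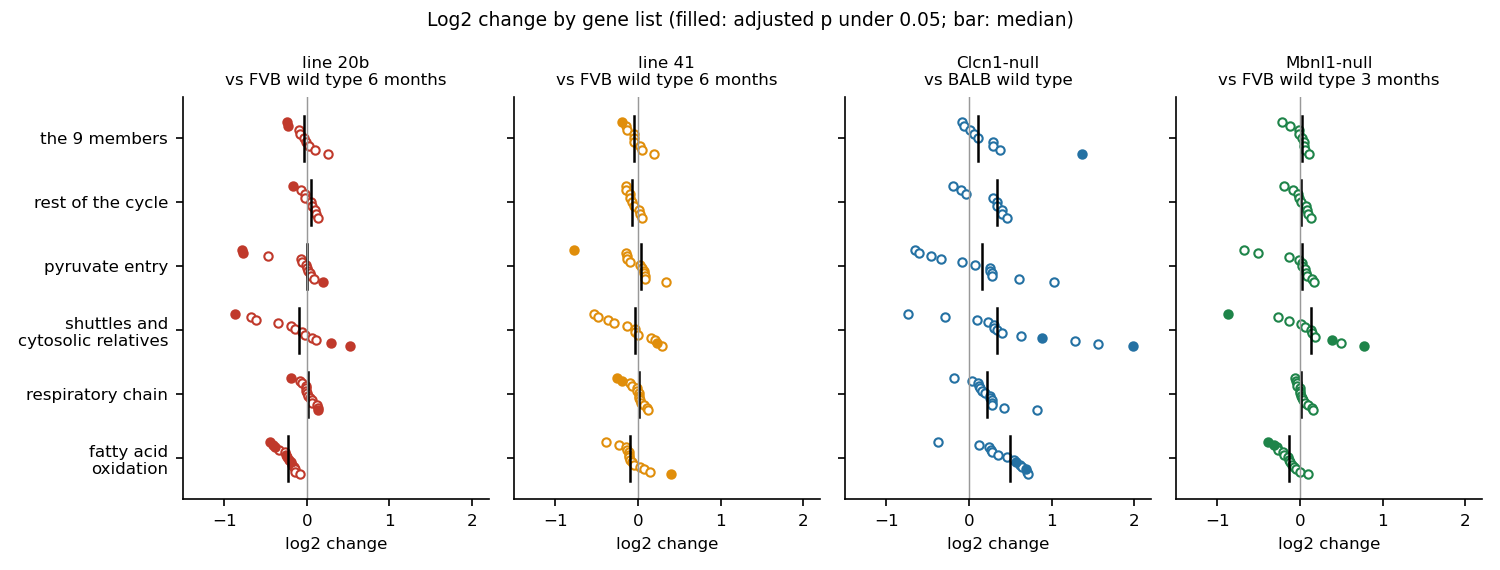
Log2 change, mutant minus wild type, of each tested gene at its lead probe set in the 9 genes and in 5 lists of related metabolism; filled points have an adjusted p under 0.05 and the bar is the median of the list. The 9 genes have medians of -0.03, -0.05, 0.11 and 0.03 from left to right, and fatty acid oxidation has -0.22, -0.10, 0.50 and -0.14.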

How the data were processed

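Quadriceps RNA (Tri-Reagent) was biotin labelled and hybridised, per the labels' protocols. The deposited values are linear array intensities made by the authors with GCRMA, per the submitters' processing notes, with version and settings not given in the sources used here. The experiments were fitted apart, since their distributions differ. Intensities were put on the log2 scale, 430A and 430B probe sets of a mouse were joined by the number in the titles, and limma 3.58.1 in R 4.3.3 (lmFit, eBayes with a trend) was fitted to all probe sets that passed the filter, with 1 mean per group and no covariate. Tests were two-sided, with Benjamini-Hochberg adjustment over all probe sets of an experiment. The number of arrays limits the precision.

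Symbols came from GEO's platform annotation: 34945 probe sets had 1 symbol, 932 several and 9160 none, and the last 2 kinds were not named. All 9 symbols stand in RefSeq. Named were all 9 genes, up to 4 called genes per list and comparison by size of change, and 5 genes of like pattern. The members, lists and tests were chosen with earlier results of these data known. Alternatives are in the closing section. The GC and TATA boxes, the within-gene fit and leaving out wild-type mice 1 and 2 of experiment 1 were chosen after values were seen, the last from the earlier results.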

Additional observations from a re-analysis of the deposited data

Results flagged for a closer look

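Single mice stood outside their group in 4 of 45 combinations of a gene with a group of 5 or 6 mice, where chance flags about 1 in 20. The combinations are not independent, since the 9 genes were read in the same mice. In line 20b mouse 3 was the lowest for 3 genes: Idh2 at 13.13 with the next mouse at 13.58, Idh3a at 14.10 with the next at 14.28, and Idh3g at 13.69 with the next at 13.89. The same mouse had the lowest mean deviation of the 9 genes in its group (-0.14). In FVB wild type of experiment 1, Idh3b read 13.91 in mouse 3 and 14.07 in the next.

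The lines 20b and 41 differed by the test of the difference itself for Cs (0.15, adjusted p = 0.0485, limma) and Ogdh (-0.28, adjusted p = 0.0252, limma).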

How the results depend on the processing

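No called change of the 9 genes turned its direction in any alternative. Of 576 single-gene values outside the leave-one-out fits, 544 kept their side of the threshold, 27 lost a call and 5 gained one. In the leave-one-out fits 434 kept it, 33 lost a call and 1 gained one. Among 892 values uncalled in both fits 40 changed sign, and the signs of uncalled values are given as descriptions. Neither rescaling moved the median of all genes by more than 0.1, but the median of the 9 genes turned from -0.03 to 0.02 in line 20b with a median shift, and from 0.03 to -0.00025 in Mbnl1-null mice with quantile normalisation.

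Counts of the 9 genes moved as follows. Higher in line 20b, 0 as reported, became 1 with a median shift of the arrays (Cs, 0.15, adjusted p = 0.0255). Lower in line 20b, 2 as reported, became 1 with a median shift, no filter, an adjusted p under 0.01, a replicate block, and without wild-type mice 1 and 2. Lower in line 41, 1 as reported, became 0 with quantile normalisation, a median shift, no filter, array weights, eBayes without trend, an adjusted p under 0.01, a replicate block, only the 2 groups compared, and without wild-type mice 1 and 2. Higher in line 20b than in line 41, 1 as reported, became 0 with quantile normalisation, no filter, 1 probe set per gene, eBayes without trend, eBayes robust with trend, an adjusted p under 0.01, a replicate block, 430A and 430B fitted apart, and only the 2 groups compared. Lower in line 20b than in line 41, 1 as reported, became 0 with an adjusted p under 0.01 and with only the 2 groups compared. Higher in Clcn1-null, 1 as reported, became 3 with array weights (Idh3b 0.23 and Ogdh 0.41 added) and 0 with an adjusted p under 0.01 and a replicate block. In Mbnl1-null mice, 0 higher and 0 lower as reported became 1 and 1 with array weights (Idh3b 0.14, Ogdh -0.25).

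With 1 mouse left out, lower counts ranged from 1 to 2 in line 20b, 0 to 1 in line 41, 0 to 1 for line 20b against line 41, and 0 to 1 in Mbnl1-null mice. Higher counts ranged from 0 to 1 for line 20b against line 41 and in Clcn1-null mice, and stayed at 0 elsewhere.

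The labels number the mice but do not say that numbers pair them. Same-numbered mice correlated by -0.19 to 0.35 in experiment 1, -0.18 to 0.08 in experiment 2 and 0.03 to 0.42 in experiment 3, with 6 of 18, 0 of 3 and 4 of 5 pairs over 0.1, so in no experiment did every pair exceed 0.1, and the numbers were not taken to pair the mice. In experiment 3 the best match was the same number for 3 of 5. There each same-numbered pair correlated more than the mean over other numbers (-0.12 to -0.0080). With a replicate block 3310 probe sets were called in Mbnl1-null mice, against 2628 without it. Whether the numbers mark a shared batch there was not tested. With the replicate block, Ogdh in line 20b (adjusted p = 0.0510), Mdh2 in line 41 (0.0557), Cs between the lines (0.0960) and Idh2 in Clcn1-null mice (0.0890) were not called, and the counts were 0 higher and 1 lower in line 20b, 0 lower in line 41, 0 higher and 1 lower between the lines, 0 higher in Clcn1-null and 0 called in Mbnl1-null mice. The cause of these moves was not tested.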
